A study of Mus musculus with 28 samples.

Results

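The 10 apolipoprotein genes Apoa1, Apoa2, Apoa4, Apoa5, Apob, Apoc1, Apoc2, Apoc3, Apoe and Apoh were described across the mouse liver lobule and across liver cell classes. They were taken by symbol, as rows named in lower case in the files, and all 10 of 10 were found among 33856 gene rows. Cells came from livers of C57BL/6 male mice kept on a reversed light cycle and fasted briefly in the morning, and every liver was digested by collagenase perfusion. No mouse carried a transgene or received a treatment beyond anaesthesia, per the labels. Pairs, which are wells sorted for a hepatocyte and a CD31+ cell attached to it, came from 3 mice aged 6, 7 and 7 weeks and 17 libraries. Single non-parenchymal cells came from 2 mice aged 3 and 4 months and 11 libraries. Wells carry no map to a mouse, so each of the 2 tables was treated as 1 sample, no test was run and no p-value is given. Intervals are exact 95% intervals that cover counting error only. The method, MARS-seq, tags the 3' end of each mRNA with a unique molecular identifier (UMI), so that 1 UMI stands for 1 captured molecule and levels of different genes were compared without division by length. Levels are given as CPM, the UMIs of a gene for each 1000000 gene UMIs.

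Apolipoproteins are the protein part of lipoproteins, the particles that carry triglyceride and cholesterol in blood, and the liver is their main source. Apob is the structural protein of very low density and low density lipoprotein, and Apoa1 and Apoa2 are the main proteins of high density lipoprotein. Apoc2 activates lipoprotein lipase, Apoc3 and Apoc1 restrain triglyceride clearance, and Apoa5 promotes it. Apoe is a ligand by which hepatocyte receptors take up remnants, and it is also made by macrophages. The liver lobule runs from the portal vein, where blood enters, to the central vein, and hepatocytes along this axis differ in their metabolism.

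In the pairs, 4620 of 4621 wells were used, with a median of 10451 UMIs per pair and a range from 2423 to 49311. Each pair was placed on the lobule axis by the UMIs of 13 pericentral and 12 periportal landmark genes of hepatocytes, none of which is an apolipoprotein gene. The outer tertiles of this score were taken as the pericentral and periportal zones, with 1540 pairs and a median of 10834 and 10139 UMIs. A total of 1058 pairs lay within 0.05 of a zone limit. Well numbers fell into 17 blocks of plate size, of which 16 held at least 60 pairs, and zones were also taken within each of these. Block medians of the score ran from 0.378 to 0.740 and block median depths from 7400.5 to 21427 UMIs, so that pooled zones also hold differences between blocks. The block numbers are those in the titles of the 17 pair libraries, but no source states that a block is a library, and blocks were not assigned to mice.

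Apolipoprotein transcripts made up 6.31% of all gene UMIs of the pairs. The share was 6.50% in pericentral and 6.04% in periportal pairs. Apoe was the third most abundant transcript of all genes, at 23867 CPM, and reached 1416 UMIs in a single pair. The high density lipoprotein genes Apoa1 and Apoa2 followed at 10439 and 10385 CPM, with Apoc1 close behind at 9430. A middle group held Apoc3 at 2821 CPM, Apoh, which encodes beta-2-glycoprotein I, at 2539, Apob at 1924 and Apoa5 at 1335. Apoc2 stood at 294 CPM and Apoa4 at 85.0. All 10 genes thus spanned from rank 3 to rank 1512 among the genes of the table. Neighbours in this order overlapped in their block values in several places. Apoa1 lay between 8009 and 12896 CPM over the 16 blocks and Apoa2 between 7847 and 14349. Apoc1 overlapped both, at 6907 to 12486, and Apoh at 2363 to 2743 overlapped Apoc3 at 2278 to 3240 and Apob at 1377 to 2494. Apob also overlapped Apoa5, at 753 to 1601. Apoe, at 17838 to 29146, Apoc2, at 255 to 378, and Apoa4, at 58.7 to 124, overlapped with no other member.

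The 10 genes divided by zone. 6 of them, Apoa4, Apoc2, Apoa1, Apoc3, Apoa5 and Apob, were higher in the periportal zone, and 4, Apoa2, Apoe, Apoc1 and Apoh, had their higher level on the pericentral side. The lean was large for Apoa4 and Apoc2 and small for the others. Both neighbouring gene groups on chromosomes 9 and 7 held members with very different ratios.

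On mouse chromosome 9, Apoa1, Apoc3, Apoa4 and Apoa5 follow each other directly in the RefSeq gene order. On chromosome 7 the order is Apoc2, Apoc4, Apoc1 and Apoe. Apoa2, Apoh and Apob lie alone on chromosomes 1, 11 and 12. Promoter windows of 300 bases, from 250 before to 50 after the start site, were available from RefSeq (GRCm38.p6) for 8 of the 10 genes. The windows of Apoa4 (chr9:46240594-46240893, plus strand) and Apoa1 (chr9:46228380-46228679, plus strand) are shown because these members of 1 cluster had the same direction but very different ratios. Those of Apoc2 (chr7:19677892-19678191, minus strand) and Apoe (chr7:19699139-19699438, minus strand) are shown because they lie in 1 cluster and had opposite directions. Each is written 5′ to 3′ on the strand of its gene, and capitals mark a match to a searched motif.
Apoa4: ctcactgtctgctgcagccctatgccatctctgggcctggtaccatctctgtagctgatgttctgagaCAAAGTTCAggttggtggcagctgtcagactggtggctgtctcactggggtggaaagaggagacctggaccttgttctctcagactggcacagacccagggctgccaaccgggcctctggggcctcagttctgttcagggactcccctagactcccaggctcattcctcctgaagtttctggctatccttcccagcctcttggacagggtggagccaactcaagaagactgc
Apoa1: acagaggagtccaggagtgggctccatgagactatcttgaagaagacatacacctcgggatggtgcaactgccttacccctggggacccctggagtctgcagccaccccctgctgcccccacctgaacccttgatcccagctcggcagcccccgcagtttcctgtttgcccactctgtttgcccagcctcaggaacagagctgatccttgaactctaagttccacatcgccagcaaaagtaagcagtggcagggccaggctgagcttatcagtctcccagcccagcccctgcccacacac
Apoc2: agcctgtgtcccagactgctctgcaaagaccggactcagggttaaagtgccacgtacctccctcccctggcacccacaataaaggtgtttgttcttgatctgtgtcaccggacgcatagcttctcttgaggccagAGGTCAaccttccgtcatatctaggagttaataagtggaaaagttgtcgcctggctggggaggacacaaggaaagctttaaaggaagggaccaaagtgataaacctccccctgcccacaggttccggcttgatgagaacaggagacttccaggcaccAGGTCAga
Apoe: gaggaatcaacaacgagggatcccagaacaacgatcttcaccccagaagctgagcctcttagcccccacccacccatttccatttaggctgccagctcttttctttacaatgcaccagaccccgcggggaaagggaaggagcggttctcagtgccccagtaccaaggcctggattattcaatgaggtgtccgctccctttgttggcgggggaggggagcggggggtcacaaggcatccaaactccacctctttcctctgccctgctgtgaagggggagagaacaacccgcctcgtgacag
Motifs searched on both strands were CAAAGNNCA, a form of the nuclear receptor element bound by HNF4A, the receptor half-site AGGTCA, an HNF1 consensus and TATAAA. Counted from the start site, the Apoa4 window held CAAAGTTCA with its first base at -182, and the Apoc2 window held AGGTCA at -115 and at 43. The windows of Apoa1 and Apoe held no match to these letters. Among the other windows, CAAAGNNCA was matched in Apob at -103 and in Apoh at -93. Of 32851 RefSeq windows of the same length, 6.36% held CAAAGNNCA, 16.3% AGGTCA, 0.0609% the HNF1 consensus and 13.6% TATAAA. These matches describe the letters of the windows, and the data hold no measurement of binding.

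Apoa4, a component of chylomicrons and high density lipoprotein made in intestine and liver, had the steepest gradient of the 10. Its level was 38.9 CPM in the pericentral zone (750 UMIs) and 149 in the periportal zone (2812 UMIs), 3.84-fold higher periportal. The log2 ratio of pericentral over periportal was -1.94, with an interval from -2.06 to -1.82. Over the 16 blocks the log2 ratio ran from -2.86 to -1.19 with a median of -1.99, and the periportal zone was higher in all 16. The block values are wider apart than those of any other member, and none comes near 0. Over 8 layers of equal size, numbered from 1 at the central vein to 8 at the portal vein, the level was 28.1, 37.1, 57.7, 61.1, 73.0, 107, 125 and 192 CPM. Each layer was higher than the one before, though the counting intervals of layers 3 and 4 and of layers 4 and 5 overlap. Layer 8 stood 6.81-fold above layer 1. After each pair was thinned to 2000 UMIs, an Apoa4 UMI was found in 7.47% of pericentral pairs, 11.9% of middle pairs and 24.5% of periportal pairs. Without thinning the shares were 33.2%, 44.5% and 63.2%. The largest number in 1 pair was 6 UMIs among pericentral and 40 among periportal pairs. Apoa4 overlaps the antisense gene Gm10680, which had 7 UMIs in the pairs, and strand use in counting is not given in the sources used here.

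Apoc2, the cofactor that lipoprotein lipase needs, was second. Its level was 217 CPM pericentral and 405 periportal, 1.87-fold higher periportal, with a log2 ratio of -0.90 (-0.96 to -0.85). Block ratios ran from -1.33 to -0.70 with a median of -0.92, and all 16 lay below 0. Over the layers the level was 189, 234, 237, 264, 266, 312, 363 and 491 CPM, with every step upward and the largest between layers 7 and 8. The counting intervals of layers 2 and 3 and of layers 4 and 5 overlap. Layer 8 was 2.60-fold above layer 1, and the highest layer was 7 or 8 in 16 of 16 blocks. In thinned pairs an Apoc2 UMI was present in 34.0%, 39.2% and 52.2% of pericentral, middle and periportal pairs. A read-through gene, Gm44805, overlaps Apoc2 on the same strand in the annotation and has no row of its own in the pair table.

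Apoc3, which inhibits lipoprotein lipase and so acts against Apoc2, leaned to the same side with a smaller ratio. It stood at 2376 CPM pericentral and 3240 periportal, a log2 ratio of -0.45 (-0.46 to -0.43), and block ratios from -0.55 to -0.16 were all below 0. Its level increased at all 7 steps, from 2149 in layer 1 to 3421 in layer 8, with counting intervals that overlap for layers 6 and 7. Apoa5, the activator of triglyceride clearance encoded beside Apoa4, had 1142 CPM pericentral and 1445 periportal, a log2 ratio of -0.34 (-0.37 to -0.31). Its block ratios ran from -0.73 to -0.04, also all below 0. Apoa5 differed in shape: the level was 954 in layer 1, 1194 in layer 2 and 1346 in layer 3, and from layer 4 to layer 8 it stayed between 1412 and 1478. The low value was thus near the central vein only, with a plateau over the rest of the lobule.

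The 2 main proteins of high density lipoprotein ran in opposite directions. Apoa1 was at 8454 CPM pericentral and 12069 periportal, a log2 ratio of -0.51 (-0.52 to -0.50), with block ratios from -0.70 to -0.23. Apoa2 was at 11840 CPM pericentral and 8783 periportal, a log2 ratio of 0.43 (0.42 to 0.44), with block ratios from 0.29 to 0.52. The block ranges of the 2 genes do not overlap, and each gene kept its direction in 16 of 16 blocks. In layer 1 Apoa1 had 7274 and Apoa2 12221 CPM. In layer 8 Apoa1 had 12097 and Apoa2 8226, so that the order of the pair was exchanged along the axis. The levels crossed between layer 4, with 10338 for Apoa1 and 10819 for Apoa2, and layer 5, with 11424 and 10168. Apoa2 was lower at each of 7 steps, whereas Apoa1 peaked in layer 7 at 12117.

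Apob, the structural protein of very low density lipoprotein, was nearly even. It had 1801 CPM pericentral and 2029 periportal, a log2 ratio of -0.17 (-0.19 to -0.15). Blocks ran from -0.40 to 0.06, and the periportal zone was higher in 15 of 16. Its layers stayed within 1.22-fold, from 1726 in layer 1 to 2100 in layer 7.

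Apoe was the most abundant of the 4 members with a pericentral lean. Its level was 26578 CPM pericentral and 21129 periportal, a log2 ratio of 0.33 (0.33 to 0.34). Block ratios lay between 0.22 and 0.43, all above 0. The layers read 27045, 26901, 25366, 24582, 23345, 21736, 20922 and 20918 CPM. The level decreased from layer 2 to layer 7, while the counting intervals of layers 1 and 2 and of layers 7 and 8 overlap. A well can also hold RNA of macrophages, and the summed level of 14 Kupffer cell markers was 65.6 CPM pericentral and 86.7 periportal. The summed level of 18 endothelial markers was 1009 and 1147 CPM, and the part of macrophage RNA and of the attached CD31+ cell in the Apoe ratio was not tested. Apoc1, encoded next to Apoe, had 9932 and 8751 CPM, a log2 ratio of 0.18 (0.17 to 0.19). It was higher pericentral in 15 of 16 blocks, which ran from -0.01 to 0.53, and it peaked in layer 2 at 10079 with its lowest value of 8440 in layer 7. Apoh had 2627 and 2383 CPM, a log2 ratio of 0.14 (0.12 to 0.16), with block ratios from 0.06 to 0.24. Apoh held between 2566 and 2638 CPM from layer 1 to layer 6 and had 2220 in layer 8.

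**Figure D1:**
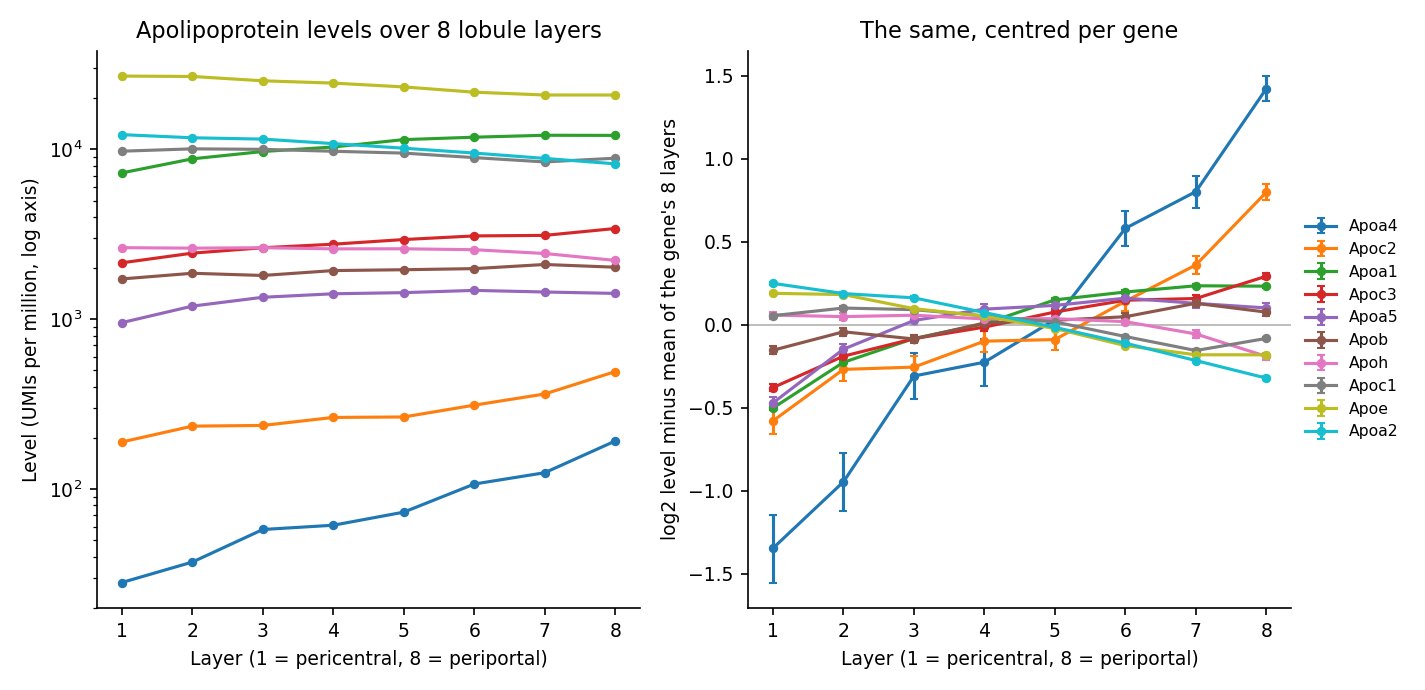
Levels of the 10 genes over 8 layers of pairs, from layer 1 at the central vein to layer 8 at the portal vein: left, CPM on a log axis, right, log2 level minus the gene's own mean over layers, with 95% counting intervals. Apoa4 runs from 28.1 to 192 CPM and Apoc2 from 189 to 491, while Apoa1 and Apoa2 cross between layers 4 and 5.

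These ratios were set beside all genes for which the zones together held 100 UMIs or more. Over the 9540 such genes the median log2 ratio was 0.09, with 95% of genes between -0.66 and 0.97, and the median of the 10 apolipoprotein genes was -0.26. Apoh at 0.14 and Apoc1 at 0.18 were therefore 0.05 and 0.09 above the median gene. With the apolipoprotein, landmark and 20 other most abundant genes left out of the total, all log2 ratios shifted by -0.10 and Apoh stood at 0.04. A ratio of 1.5-fold or more toward the periportal zone was reached by 2 of the 10 genes, Apoa4 and Apoc2, against 3.18% of all genes. None of the 10 reached 1.5-fold toward the pericentral zone, against 6.75% of all genes. In every block, 5 of the 10 were higher periportal, against 3.35% of the 6062 genes with enough UMIs in each block, and 3 were higher pericentral, against 8.15%. Blocks were read with the full total only. The lowest block ratio of Apoh, 0.06, is smaller in size than the shift of -0.10, so its constant direction rests on that total. The abundant members have far more UMIs than most genes, so a constant direction over blocks is easier to reach for them.

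**Figure D2:**
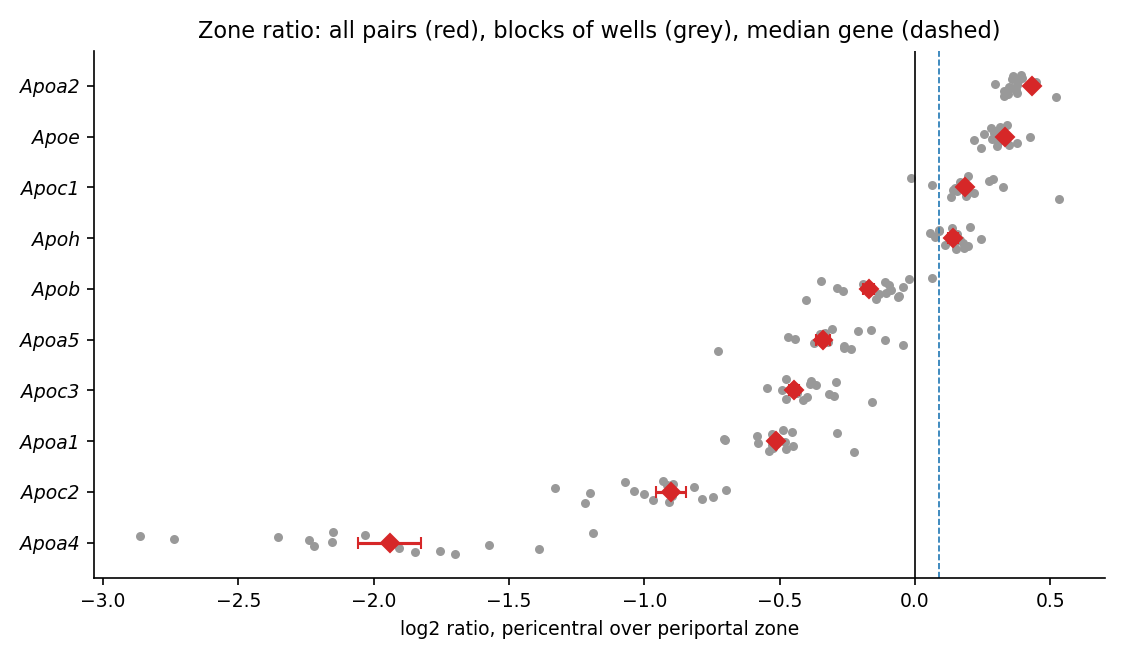
Log2 ratio of pericentral over periportal level for the 10 genes: red diamonds are all pairs with 95% counting intervals, grey points are the 16 blocks with zones taken within the block, and the dashed line is the median of all genes at 0.09. The grey points of Apoa4, Apoc2, Apoa1, Apoc3 and Apoa5 all lie below 0, and those of Apoa2, Apoe and Apoh all above 0.

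For each gene, the 3 other genes with the most similar layer profile were found among 3156 genes, by the root mean square difference of the centred log2 levels over the 8 layers. For Apoa4 these were Uroc1, an enzyme of histidine breakdown, at 0.20, Serpina12 at 0.22 and Amdhd1, also of histidine breakdown, at 0.27. Apoc2 was nearest to Fbp1, the gluconeogenic fructose-1,6-bisphosphatase, at 0.09, then Nampt and C2. Apoc3 was nearest to the fatty acid desaturase Fads1 at 0.02, then H2-K1 and F10. Apoa1 was nearest to Uox, urate oxidase, at 0.02, then the complement gene C8b and the fibrinogen gene Fgb. For Apoa5 the list was 4933426M11Rik, Tat and Lpin1, and for Apob it was Agt, Actn4 and H13. On the pericentral side, Apoe was nearest to Acsl1, which activates long-chain fatty acids, at 0.0090, then Ubl5 and Pde3b. Apoa2 was nearest to Psmd2, Dhdh and Decr1, Apoc1 to Ndrg2, Afmid and Chchd2, and Apoh to Haao, Asgr1 and Ctsd. The differences for the flat profiles are small for many genes, and for Apoa4, whose profile spans 2.77 on the log2 scale, even the nearest gene differs by 0.20.

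Variation between pairs of the same block and layer also differed among the genes. In 3980 pairs thinned to 5000 UMIs, the ratio of variance to mean was 3.07 for Apob, against a median of 1.43 over 47 genes of similar mean. For Apoa4 it was 1.52 against 1.05 over 1199 genes, and for Apoa1 3.92 against 2.63 over 7 genes. Apoh, at 1.28 against 1.52 over 35 genes, and Apoa2, at 2.09 against 2.93 over 8 genes, varied less than genes of their level. For Apoe only 1 gene of similar mean exists, so its value of 6.05 has no useful comparison.

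Members also moved together or apart from pair to pair. Correlations were taken over 4620 pairs after removal of layer means, as a description of pairs that share plates, depth and a fixed total. Apoc1 and Apoc3 had the highest value, with r = 0.46, and r = 0.32 after thinning to 5000 UMIs (3988 pairs). Within single blocks their r ran from 0.26 to 0.79, above 0 in 16 of 16. Apob and Apoc1 had the lowest, with r = -0.38, and r = -0.28 after thinning. Within blocks this pair ran from -0.59 to -0.15, below 0 in all 16. Apob was also below 0 with Apoc3 in 16 of 16 blocks (r = -0.25). Apoa5 and Apoe had r = 0.36, from 0.13 to 0.50 within blocks, and Apoa1 and Apoe had r = 0.41, from -0.03 to 0.57. After thinning, Apoa1 and Apoe had the highest value, with r = 0.42. With block means also removed from the thinned pairs, Apoc1 and Apoc3 were highest again at r = 0.325, with Apoa1 and Apoe at 0.301. Neighbours in the genome were not uniformly the most correlated: Apoc1 and Apoe ran from -0.67 to 0.37 over blocks, with 11 of 16 below 0.

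Genes that act with apolipoproteins were read in the same zones, in 5 lists. Over all genes, 6.75% were at least 1.5-fold higher pericentral and 3.18% periportal. Of 17 measured genes of lipoprotein assembly and secretion, 1 was at least 1.5-fold higher pericentral and 1 periportal. The pericentral gene was Sort1, a sorting receptor, at 16.1 against 7.05 CPM (log2 ratio 1.19), and the periportal one was Tm6sf2, a factor in lipidation of very low density lipoprotein, with 271 against 511 UMIs (log2 ratio -0.95). Both had that direction in 16 of 16 blocks. Mttp, the transfer protein that loads lipid onto Apob, was even, with 151 and 154 CPM and a log2 ratio of -0.02. The list median was 0.09, the same as that of all genes. Further members were Soat2 at 0.47 and A1cf, a cofactor of Apob mRNA editing, at 0.37, and at the lower end Sar1b at -0.20 and Tm9sf4 at -0.13. Sar1b had the pooled direction in 1 of 16 blocks only.

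Of 15 tested receptor and uptake genes, Lrp5 was at least 1.5-fold higher pericentral (log2 ratio 1.02, 304 and 146 UMIs) and Lsr, a receptor for triglyceride-rich particles, was higher periportal (-0.60). The heparan sulfate proteoglycan Sdc1, which binds remnants, stood at -0.54 in the same direction as Lsr in 16 of 16 blocks, and Lrp6 at -0.43. Lrp1, a remnant receptor of hepatocytes, had 211 and 190 CPM (0.15). The list median was -0.11.

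Lipases and remodelling genes leaned pericentral: 5 of 16 were at least 1.5-fold higher there and 0 periportal, against 6.75% and 3.18% of all genes. The list median was 0.26, against 0.09 for all genes. Lpl, lipoprotein lipase, had 1076 pericentral and 68 periportal UMIs, or 55.7 and 3.61 CPM, a log2 ratio of 3.95 in the pooled direction in 16 of 16 blocks. Its cofactor gene Apoc2 had the opposite lean. Pon1, an esterase carried on high density lipoprotein, had 1387 and 539 CPM (1.36), and Pltp, the phospholipid transfer protein, 29.4 and 13.7 (1.10). Abcg8 at 0.93 and Lipg at 0.82 also passed 1.5-fold. Lipc, hepatic lipase, was even at 169 and 167 CPM (0.02). Angptl4, at -0.16, had the pooled direction in 4 of 16 blocks. A pair also holds RNA of the attached cell. In the single cells described below, Pltp was at 1121 CPM in Kupffer-like wells and 94.1 in the other wells. Lpl was at 231 and 37.6 CPM there. The part of attached cells in the ratios of this list was not tested.

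None of 13 other apolipoprotein genes reached 1.5-fold in either direction, and their median was 0.24. Apon at -0.57, Apof at -0.45 and Apom at -0.44 were higher periportal, in 16, 16 and 15 of 16 blocks. Saa2 at 0.44, Saa1 at 0.39 and Apol7a at 0.38 were the highest pericentral, but Saa1 and Saa2, acute-phase genes, had that direction in 7 and 5 of 16 blocks. Apoc4, which lies between Apoc2 and Apoc1 on chromosome 7, was at 0.24 in 16 of 16 blocks, so that in this cluster Apoc2 alone was higher periportal. Of 22 transcription factors known for apolipoprotein genes, 0 were at least 1.5-fold higher pericentral. Hnf4a was at 491 and 525 CPM (-0.09), Rora stood at -0.23 and Cebpa at -0.10. At the upper end were Nr5a2 at 0.42, Srebf1 at 0.31 and Mlxipl at 0.29. Srebf1 had the pooled direction in 7 of 16 blocks. The median of the factors was 0.05.

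**Figure D3:**
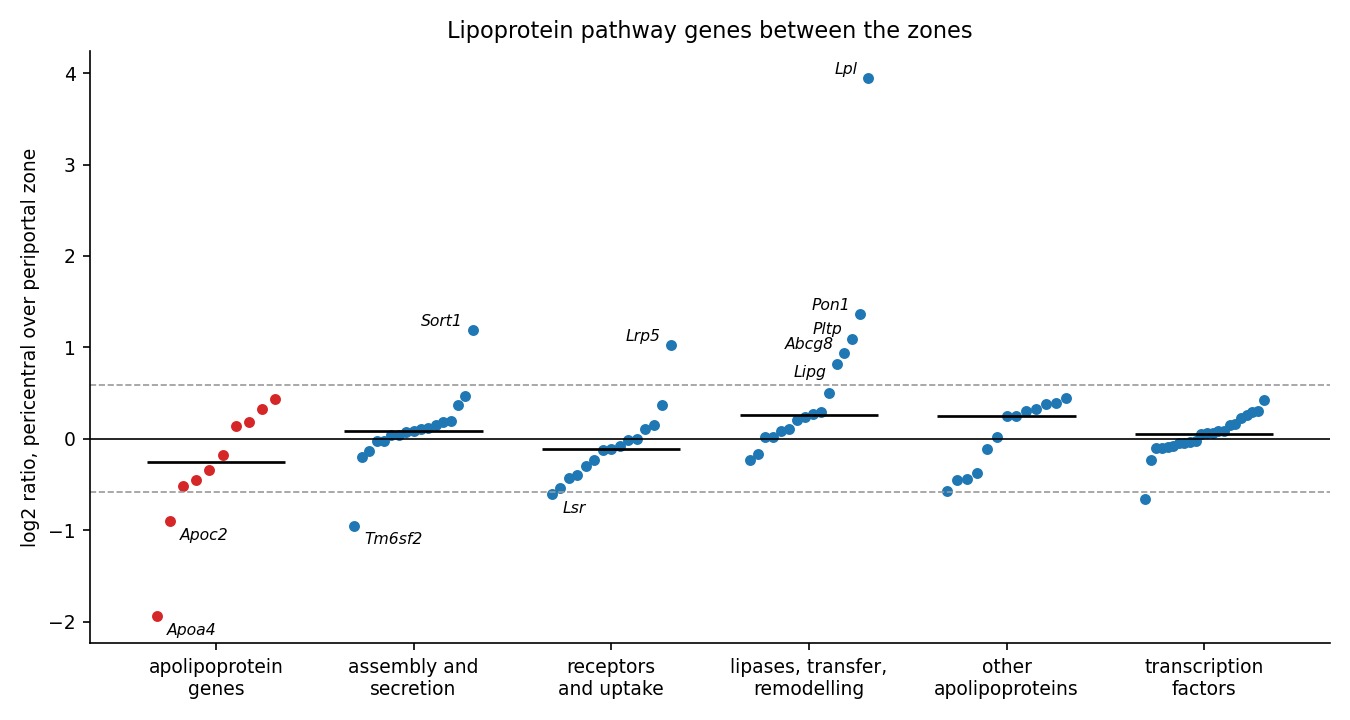
Log2 ratio of pericentral over periportal level for the 10 apolipoprotein genes (red) and the tested genes of 5 lipoprotein lists (blue), with each list's median as a bar and dashed lines at 1.5-fold. Lpl at 3.95 and Apoa4 at -1.94 are the ends of the range.

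In the table of single non-parenchymal cells, 2692 of 3720 wells with at least 300 gene UMIs were used, with a median of 710 UMIs. Clusters were made without the apolipoprotein genes and without 30 hepatocyte genes used for background, and 13 clusters gave 10 named classes. These were T-like (854 wells), endothelial-like (853), B-like (286), Kupffer-like (247), plasmacytoid dendritic-like (109), monocyte-like (104), conventional dendritic-like (101), NK-like (79), hepatocyte-like (31) and neutrophil-like (28) wells. Kupffer cells are the resident macrophages of the liver, and all 14 of their 14 markers were at least 2-fold higher in the Kupffer-like wells, with Clec4f 76.0-fold. The monocyte-like wells had 7 of 8 monocyte markers and also 6 of the 14 Kupffer markers at 2-fold, with Retnla, Alox15, F13a1 and Prg4 in the lead. In 1 of the T-like clusters mast cell genes such as Cpa3, Tpsb2 and Cma1 were among the leading genes. No doublet caller was run on these wells.

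Hepatocyte RNA was present in every class. Over the 30 background genes, such as Alb and Ttr, the median level was 7.48% of that in pairs in Kupffer-like wells, 8.78% in endothelial-like, 4.72% in T-like, 4.08% in conventional dendritic-like, 7.87% in B-like and 5.99% in monocyte-like wells. It was 12.9% in neutrophil-like and 71.0% in hepatocyte-like wells. This share times the level in pairs gave the background level of each apolipoprotein gene, and the observed level was divided by it. The pairs came from other, younger mice than the single cells, and the part of mouse and age in these ratios was not tested.

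Apoe stood far above this background in Kupffer-like wells and was their most abundant transcript. Its level there was 27212 CPM (26632 to 27801; 8372 UMIs), above the 23867 of the pairs, against a background of 1784, a ratio of 15.3. These levels are shares of UMIs and not amounts per cell, and the 2 tables come from different mice. The median was 23 Apoe UMIs per Kupffer-like well and 231 per pair. An Apoe UMI was present in each of the 247 wells. Per well it took 0.281% to 8.18% of the UMIs, with a median of 2.51%. In the 2 runs of well numbers in the table, Apoe was at 27501 and 26710 CPM, 14.6 and 15.7 times the background. Monocyte-like wells had 20608 CPM, 14.4 times the background, but with a wide spread: 8 of 104 wells held no Apoe UMI, the median was 1.24% and the highest well 9.53%. The runs gave 18.1 and 12.7 times the background. These wells also carried Kupffer markers, with a median over the 14 markers of 11.3% of the level in Kupffer-like wells and 58.4% for the highest marker. With Kupffer-like RNA at that median share added to the hepatocyte background, the Apoe ratio was 4.58 (4.41 to 4.75). Intervals of ratios with added Kupffer-like RNA do not cover the spread between markers. Whether the monocyte-like wells expressed these markers themselves was not tested. Hepatocyte-like wells had 18090 CPM, 1.07 times the background.

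Endothelial-like wells came next, with 6108 CPM, 2.91 times the background (2.82 to 3.01). Apoe there was at 25.6% of its level in pairs, and the 30 background genes reached at most 18.2% of theirs. The median over the 14 Kupffer markers in these wells was 1.03% of the level in Kupffer-like wells, and the highest marker reached 8.24%. With Kupffer-like RNA added in the same way, the ratio was 2.57. The other classes were near the hepatocyte background: T-like wells at 1.59, conventional dendritic-like at 1.58, B-like at 1.46, plasmacytoid dendritic-like at 1.23, neutrophil-like at 1.22 and NK-like at 0.95. In wells thinned to 300 UMIs, an Apoe UMI was found in 99.2% of Kupffer-like, 78.8% of monocyte-like and 77.4% of endothelial-like wells, against 38.6% to 57.1% in the non-hepatocyte classes that remain. Without thinning the first 3 shares were 100%, 92.3% and 90.4%. In these pooled sums, fewer cells with the transcript and less RNA per cell cannot be told apart, except where the values per well are given.

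**Figure D4:**
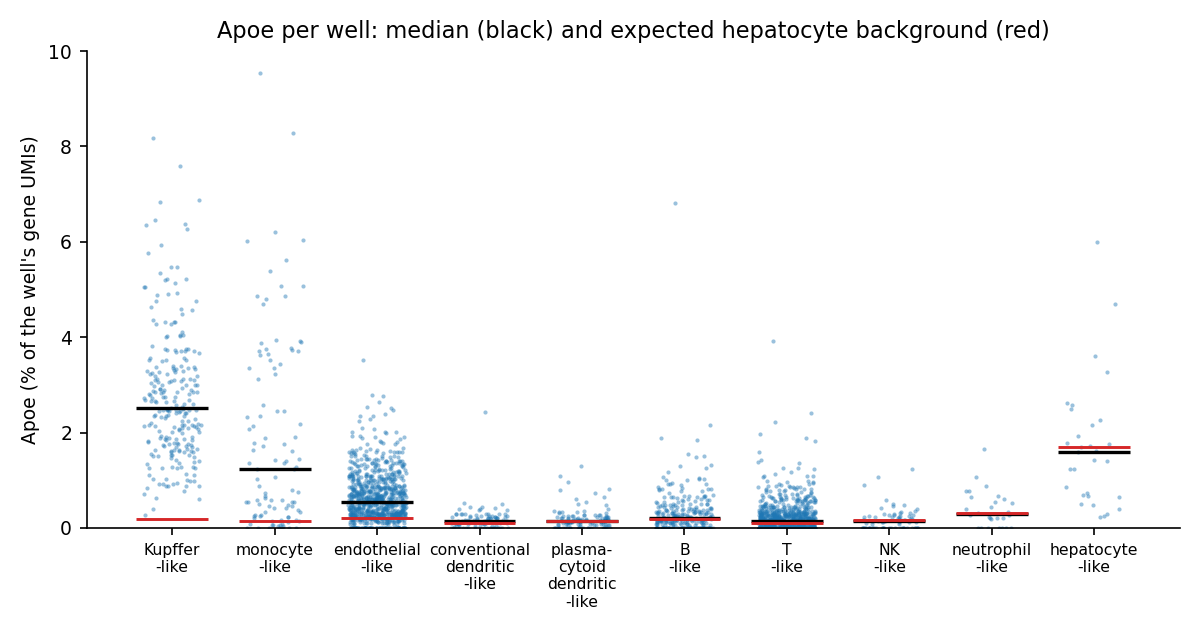
Apoe as percent of the gene UMIs of each single well, by class, with the class median in black and the hepatocyte background in red. Kupffer-like wells have a median of 2.51% and none at 0, monocyte-like wells spread from 0% to 9.53%, and the T-, B- and NK-like medians lie close to the red line.

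Apoc1, the neighbour of Apoe, was the other gene that stood apart in Kupffer-like wells. Its level was 3777 CPM (3563 to 4000; 1162 UMIs), 5.36 times the background, and the runs of wells gave 4.37 and 6.97 times. In thinned wells, an Apoc1 UMI was found in 65.2% of Kupffer-like wells, 46.4% of neutrophil-like, 38.7% of hepatocyte-like and 26.6% of NK-like wells, and in 14.9% to 21.1% of wells in each remaining class. Without thinning the first 4 shares were 83.8%, 57.1%, 54.8% and 35.4%. Monocyte-like wells, with Apoe at 14.4 times the background, had Apoc1 at the background, with an interval from 0.79 to 1.25 times. With Kupffer-like RNA at its median share added to the background, Apoc1 there was at 0.57 times (0.45 to 0.71), and the runs without it gave 0.74 and 1.37 times. Endothelial-like wells had Apoc1 at 0.71 times the background (0.64 to 0.79). Relative to its level in pairs, Apoc1 there lay above 4 of the 30 background genes. In hepatocyte-like wells Apoc1 was at 0.62 times the background (0.50 to 0.75). High Apoe thus went with high Apoc1 in Kupffer-like wells and not in the other 2 classes.

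Apoc2 was sparse in these cells. Monocyte-like wells held 22 Apoc2 UMIs, or 161 CPM, 9.14 times the background (5.73 to 13.8). Relative to its level in pairs, Apoc2 there lay above each of the 30 background genes. With Kupffer-like RNA added to the background the ratio was 7.32 (4.59 to 11.1). Kupffer-like wells held 12 Apoc2 UMIs, 1.77 times the background with an interval from 0.92 to 3.10. B-like wells held 16, at 2.85 times (1.63 to 4.63), and conventional dendritic-like wells 7, at 3.18 times (1.28 to 6.56). In the remaining classes Apoc2 lay between 0.41 times, in hepatocyte-like wells with 2 UMIs, and 2.07 times, in neutrophil-like wells with 1 UMI.

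The other members lay closer to the background. In Kupffer-like wells the ratio was 1.23 for Apoa1, 1.25 for Apoa2, 1.17 for Apoa5, 0.94 for Apoc3 and 1.16 for Apoh. Apob was higher, with an interval from 1.74 to 2.62, and stood at 1.82 in endothelial-like, 1.69 in T-like and 1.61 in B-like wells. Relative to its level in pairs, Apob lay above 28 of the 30 background genes in Kupffer-like and 29 in endothelial-like wells. In T-like and in B-like wells it lay above 26 of the 30. Apob thus stayed within the spread of the background genes in each of these classes, which the interval does not cover. The runs of wells differed for Apob, with ratios of 2.46 and 1.42 in Kupffer-like, 2.29 and 1.06 in T-like and 1.98 and 1.68 in endothelial-like wells. In monocyte-like wells they were 3.22 and 0.53, from 23 and 4 UMIs. Apoa4 was seen too rarely to be read, with 1 UMI in Kupffer-like wells and 9 in endothelial-like wells. In NK-like wells no Apoa4 UMI was seen, where 3 UMIs correspond to 54.2 CPM, so that its expected background of 5.78 CPM was not detectable at this depth. In conventional dendritic-like and neutrophil-like wells Apoa4 was also at 0, with limits of 16.4 and 235 CPM.

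**Figure D5:**
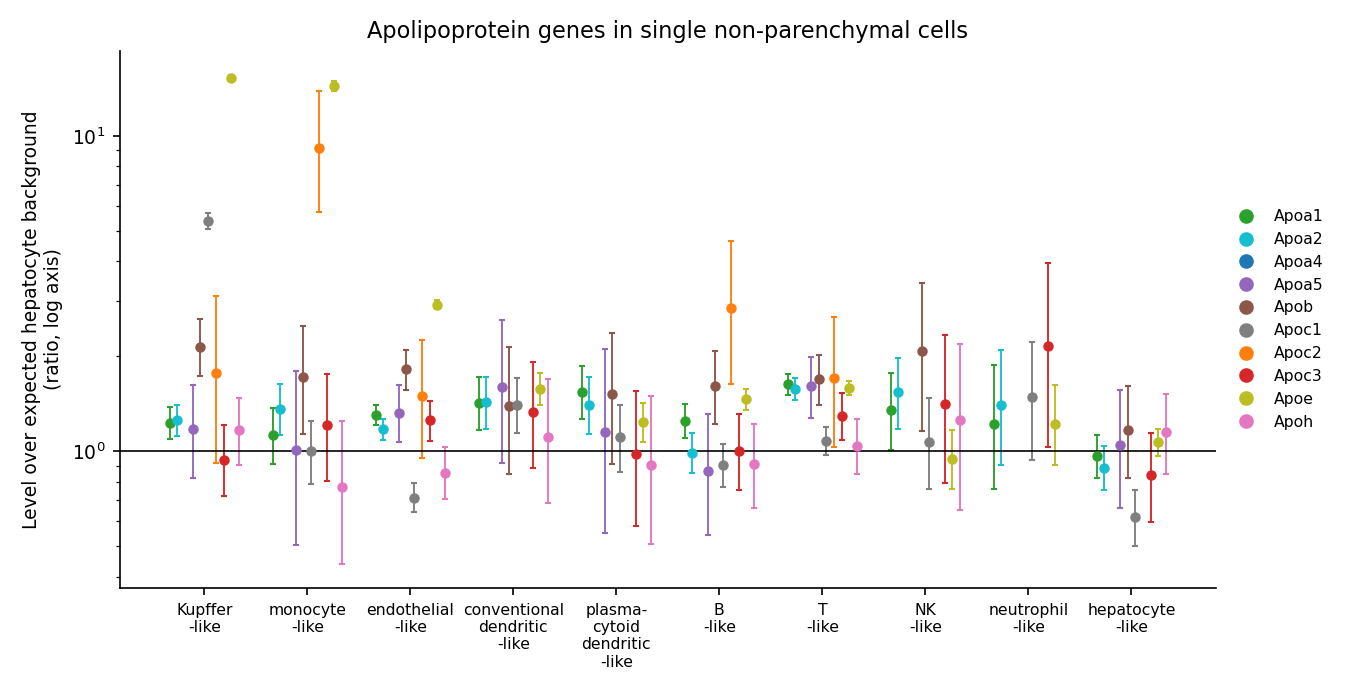
Observed level divided by the hepatocyte background, on a log axis with 95% counting intervals, for each apolipoprotein gene with at least 10 UMIs in a class. Apoe lies at 15.3 in Kupffer-like, 14.4 in monocyte-like and 2.91 in endothelial-like wells, Apoc1 at 5.36 in Kupffer-like and Apoc2 at 9.14 in monocyte-like wells, and most other points lie between 0.6 and 2.2.

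Against all other wells together, Apoe was 6.14-fold and Apoc1 6.28-fold higher in Kupffer-like wells. These were 2 of 9 tested apolipoprotein genes at 2-fold or more, against 9.78% of 5113 genes tested. Other genes of the lipoprotein lists were read in the same way. The median log2 ratio of all tested genes was -0.32. The share of all genes at least 2-fold lower was not taken, so counts of lower genes below have no comparison. Nr1h3, the liver X receptor alpha known as an activator of Apoe in macrophages, was 31.2-fold higher, at 520 against 16.7 CPM. Of 10 tested transcription factors, 4 were at least 2-fold higher and 4 lower. Among receptors, Lrp1 was 16.2-fold higher, at 904 against 55.6 CPM, and Scarb1 4.19-fold, with 3 of 9 tested genes higher and 5 lower. The lower ones included Gpihbp1, which anchors lipoprotein lipase on capillary endothelium, and the endothelial scavenger receptors Stab1 and Stab2. Of 6 tested lipase and remodelling genes 4 were higher and 1, Abca7, lower (0.43-fold), with Pltp 11.9-fold, Lpl 6.15-fold and the cholesterol exporter Abcg1 2.42-fold, and another exporter, Abca1, at 283 against 58.9 CPM. Apobec1, the enzyme that edits Apob mRNA, was 6.56-fold higher, at 286 against 43.6 CPM.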

How the data were processed

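The authors deposited raw UMI counts, with 1 row for each gene symbol and 1 column for each well. The submitters' processing notes name bcl2fastq 2.15.0.4 and the mouse build mm9. Which aligner, annotation and counting strand were used is not given in sources used here. Spike-in rows, 0.715% of UMIs in pairs and 52.8% in single cells, were left out, and levels (CPM) are UMIs for each 1000000 gene UMIs.

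Pairs needed 1000 gene UMIs and 20 landmark UMIs. The score was the pericentral share of landmark UMIs, each group divided by its mean. Zones were the tertiles above 0.659 and up to 0.316. Intervals are exact Poisson for levels, conditional binomial for ratios and Clopper-Pearson for shares. Blocks in which a gene had fewer than 10 UMIs were not used for its direction. Single wells were clustered with scanpy 1.11.5 and Leiden 0.10.2 (30 components, 15 neighbours, resolution 1) and named where at least 3 markers were 2-fold higher. Calculations used Python 3.11.15 and scipy 1.17.1. The zone ratios were tested on simulated Poisson counts without differences between blocks. That simulation cannot show how the intervals hold for genes that vary more than counting error. The planned test over mice was not run because no source maps wells to mice, and no p-value was made from wells. Some genes of the pathway lists are not reported here.

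The members and gene lists were chosen with earlier results of these data known. All 10 members are named, the 3 genes at each end of a pathway list with at least 100 UMIs, and the 3 genes with at least 2000 UMIs most like each member; further pathway genes were named after their values were seen. Alternatives covered the zone limits, landmarks, depth, scaling, blocks, cell filters, clustering and background genes. Within-block correlations, Kupffer-like RNA as a second background and the C1q division of wells were added after seeing the data.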

Additional observations from a re-analysis of the deposited data

How the results depend on the processing

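Each of the 10 apolipoprotein genes kept its direction between the zones under every alternative run. With all pairs split at the median score, the log2 ratio was 0.33 for Apoa2, -1.43 for Apoa4, -0.63 for Apoc2, -0.33 for Apoc3 and 0.26 for Apoe. With outer quintiles it was -0.65 for Apoa1, 0.51 for Apoa2, -2.48 for Apoa4, -1.17 for Apoc2, -0.55 for Apoc3 and 0.20 for Apoh, and 11 pathway genes passed 1.5-fold pericentral and 5 periportal, against 7 and 3. The 2 sets of limits compare pairs closer together or farther apart on the axis. The periportal count was also 5 with each landmark scaled to its own mean, with pairs thinned to 2000 UMIs, with a median of ratios size factor and without the members, landmarks and 20 other most abundant genes in the total. In the last setting Apoa2 stood at 0.33, Apoc3 at -0.55, Apoe at 0.23 and Apoh at 0.039, and with the size factor Apoa2 at 0.36, Apoe at 0.26 and Apoh at 0.071, since both shift all ratios alike. With zones taken within blocks Apoa2 stood at 0.36. With 5 layers, the ratio of first to last layer of Apoc3 was -0.55, against -0.67 with 8. With no minimum of UMIs, 19.6% of genes passed 1.5-fold pericentral and 17% periportal, against 6.75% and 3.18%. Leave-one-out of single blocks gave ranges of -0.53 to -0.49 for Apoa1, 0.43 to 0.45 for Apoa2, -1.97 to -1.86 for Apoa4, -0.36 to -0.31 for Apoa5, -0.20 to -0.15 for Apob, 0.16 to 0.19 for Apoc1, -0.91 to -0.87 for Apoc2, -0.46 to -0.42 for Apoc3, 0.32 to 0.34 for Apoe and 0.13 to 0.15 for Apoh. The pathway counts were 7 to 7 pericentral and 2 to 4 periportal. Apoe over background in Kupffer-like wells was 15.8 in wells with at least 500 UMIs, 17.2 at Leiden resolution 0.5 (level 29001 CPM), 17.3 without wells over 5% background genes, 14.2 with Alb alone, 14.4 with background genes summed, and 11.5 and 19.4 with the pericentral and periportal pairs as the hepatocyte profile. At resolution 0.5 no cluster was named monocyte-like, and 298 wells were Kupffer-like, against 247 in the main setting. Over the same settings, Apoc1 in Kupffer-like wells ran from 4.26 to 6.50 times the background. Apoe ran from 2.26 to 3.72 times in endothelial-like and from 10.6 to 17.7 times in monocyte-like wells. Apoc2 in monocyte-like wells ran from 7.09 to 10.3 times. The cause of these shifts was not tested. No paired analysis was possible because the wells carry no label of a mouse. Apoa4 and Apoc2 in single cells are limited by depth, with at most 23 UMIs in a class.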

Other observations

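The monocyte-like wells were divided, after their values were seen, by the presence of any UMI of the complement genes C1qa, C1qb and C1qc, which macrophages make. In the 66 wells with such a UMI, Apoe was at 27946 CPM, 21.5 times the hepatocyte background and at the level of Kupffer-like wells, while Apoc1 was at 643 CPM, 1.25 times the background. In the 38 wells without one, Apoe was at 4711 CPM, 2.91 times the background, and Apoc1 at 395. Apoc2 had 12 UMIs in the first set and 10 in the second, or 129 and 232 CPM, with intervals that overlap (66.4 to 225 and 111 to 427). The 2 sets had median depths of 1272.5 and 1024 UMIs, and the part of depth in this division was not tested.

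Among B-like wells, in which Apoe had a median of 0.200% of UMIs, 1 well reached 6.82%.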
